A study of Mus musculus with 8 samples.

Results

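The subject here is 10 transcription factors of effector and exhausted CD8 T cells: Tox, Tox2, Eomes, Tbx21, Prdm1, Ikzf2, Nfatc1, Id2, Rbpj and Bhlhe40. They were chosen by gene name from the 19673 genes listed, and all 10 were found and passed the filter on low values. The RNA came from tumour cell suspensions sorted for live CD45+CD3e+CD8+ cells. The tumours were of Py8119, a mouse mammary tumour line from an MMTV-PyMT tumour, and had been grown in hosts labelled Mtdh KO (for the gene of metadherin) or in WT hosts, with 4 biological replicates each, called KO and WT libraries 1 to 4. The labels put the knockout in the host and name no promoter, Cre, strain, age or sex. Strain, age and sex of the hosts are thus not given in the sources used here, and all 8 tumours shared the same injected line.

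CD8 T cells that meet antigen for long in a tumour pass from a stem-like state, kept by the factor Tcf7 (TCF-1), to effector and exhausted states. T-bet (Tbx21) and Eomesodermin (Eomes) are related T-box factors that drive killing and memory programmes, and Tox is the HMG-box factor known for setting the chromatin of exhausted cells. Antigen receptor signals reach these genes through calcineurin and NFAT proteins such as Nfatc1. Several of the 10 genes, Id2, Rbpj, Prdm1 and Bhlhe40 among them, are also transcribed in myeloid cells, and Ikzf2 (Helios) is also known from regulatory T cells.

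Values are the authors' gene-level signal, labelled as DESeq2-normalized and called normalized values below. Estimated depth was 16446300 to 29558200 reads per library. The number of distinct amplified fragments behind those reads, estimated from how many moderately expressed genes were missing, was 111477 to 635923. A single fragment was then worth a normalized value of 23.4 in WT library 3 and 154 in KO library 2, and values near these rest on few molecules. Mtdh, the gene named in the host label, was lower in each KO library than in any WT library and stood at 42.6% of the WT level in KO (adjusted p = 0.0400 by limma; exact two-sided permutation p = 0.0286, the smallest that 70 arrangements allow). Mtdh RNA was thus reduced but not absent in the KO libraries, at 2538 to 5118, and the source of what remained was not tested. The limma call held in 3 of the 8 omissions of a library and ended without KO library 2 (0.0560), 3 (0.0673) or 4 (0.193) or WT library 1 (0.241) or 2 (0.168). All 12 listed CD8 T cell markers were detected, 7 of them above the worth of a fragment in every library. Cd8a ranged from 1565 to 13355 and Cd3e from 909 to 6339. Macrophage RNA was present in every library as well, with Lyz2 at 75242 to 211543. Nothing states whether each replicate was a separate animal, and p-values here measure the spread between these samples. In such bulk samples fewer cells of a type and less RNA per cell cannot be told apart.

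Of the 10 factors, Ikzf2 was higher in KO past limma's threshold, a Benjamini-Hochberg adjusted p of 0.05 over 16120 tested genes, and none was lower. Over all tested genes 0.211% were called higher and 0.0248% lower. At an unadjusted p under 0.05, 5 factors were higher in KO (Ikzf2, Tox, Bhlhe40, Id2 and Prdm1) and 0 were lower, where 3.21% and 3.49% of all tested genes were. The KO and WT libraries did not overlap for Ikzf2 and Tbx21, both higher in KO. Such separation was seen for 2.02% of all tested genes in that direction and 2.09% in the other. The median log2 fold change of the 10 was 0.65 with 8 positive, against -0.12 over all tested genes, of which 43.4% were positive. The 10 were chosen with earlier results of these data known, so these shares are descriptive and do not test the set.

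**Figure D1:**
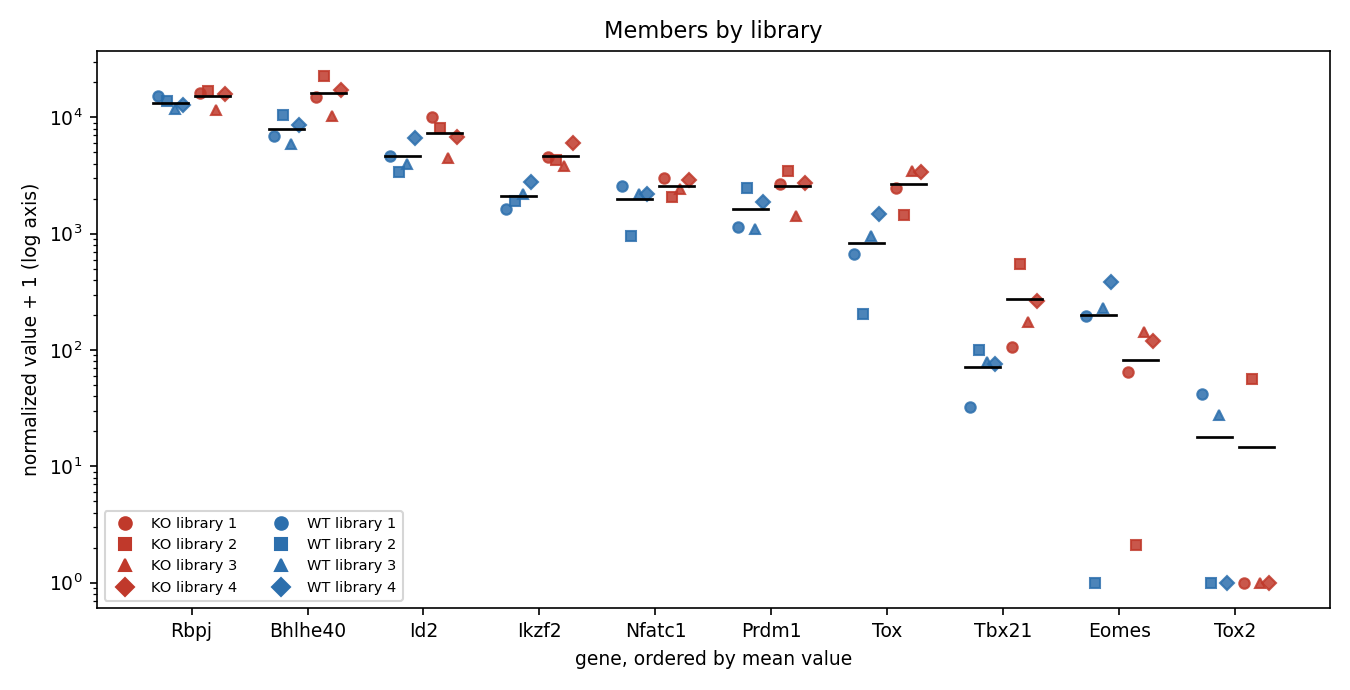
Normalized value plus 1 (log axis) of each of the 10 factors in each library; WT libraries are blue and KO libraries red, the shape gives the library number, and black bars are arithmetic means of 4 libraries. Ikzf2 and Tbx21 are the genes whose KO and WT points do not overlap, and Eomes lies near the floor in both libraries numbered 2.

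Ikzf2 encodes Helios, a zinc finger factor of the Ikaros family found in regulatory T cells and in activated and exhausted CD8 T cells (ENSMUSG00000025997, chromosome 1, 69570373 to 69726404 of mm39, minus strand). Its normalized values were 4589, 4346, 3795 and 6052 in KO libraries 1 to 4. In WT libraries 1 to 4 they were 1639, 1892, 2176 and 2802. Every KO library lay above every WT library, and the highest WT value, in library 4, was below the lowest KO value, in library 3.

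Ikzf2 thus rose 2.22-fold on the log2(value + 1) scale, its mean being 4696 ± 963 with KO hosts and 2127 ± 500 with WT hosts (SD, n = 4 each). Its log2 fold change was 1.15 (SE 0.23, 95% interval 0.67 to 1.63, adjusted p = 0.0379 by limma). The size of the change stayed between 1.02 and 1.29 when any library was left out, while the call held in 2 of the 8 omissions, those of KO library 3 (adjusted p = 0.0230) and WT library 4 (0.0107). It ended without KO library 1 (0.0785), 2 (0.0660) or 4 (0.264) and without WT library 1 (0.241), 2 (0.120) or 3 (0.0870). It also ended with a minimum mean of 50 (adjusted p = 0.0608 by limma), and without both libraries numbered 2 (0.162), and Ikzf2 rested on 26.4 to 157 estimated fragments per library.

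Foxp3, the defining factor of regulatory T cells, was at 0 in 6 of the 8 libraries and at 21.9 and 50.7 in the other two, WT library 3 and KO library 3. Cd4 was at 0 to 169. A fragment was worth 23.4 in WT library 3 and 41.1 in KO library 3, so at this depth such zeros and low values say little. The summed CD4 and regulatory T cell list was higher in KO, at 1767 to 2339 against 801 to 1273 in WT (difference in mean log2 0.96, exact permutation p = 0.0286, adjusted p = 0.0857 over 9 lists). Its gene past the threshold was Il2ra, which activated CD8 T cells also make, and that call ended without KO library 1 (adjusted p = 0.0736 by limma) or 4 (0.0922). Il2ra made up much of the difference in this sum, averaging 913 with KO hosts and 86.6 with WT hosts. The sum without Il2ra was not tested, so a difference in CD4 or regulatory T cell RNA is not shown.

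Tox had the largest log2 fold change of the 10 factors but did not pass. The gene (ENSMUSG00000041272, chromosome 4, 6686353 to 6991557, minus strand) stood at 2449, 1440, 3431 and 3366 in KO libraries 1 to 4. The WT values were 668, 202, 959 and 1463. The groups touched at a single point, WT library 4 lying just above KO library 2. Tox averaged 2672 ± 936 with KO hosts and 823 ± 528 with WT hosts (SD, n = 4 each), a 3.82-fold difference on the log2(value + 1) scale. In log2 units the difference was 1.93 (SE 0.45, 95% interval 1.002 to 2.87, adjusted p = 0.0992 by limma).

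Both libraries numbered 2 were the lowest of their group for Tox, and there it rested on an estimated 9.38 fragments in KO and 3.14 in WT. Without both of them the log2 fold change of Tox was 1.64 and passed (adjusted p = 0.0480 by limma), and without WT library 4 it was 2.32 and passed (0.00962). In the other 7 omissions of a library it ranged from 1.37 to 2.20 and did not pass (adjusted p from 0.0660 to 0.358). The adjusted p of Tox by limma was 0.484 with robust hyperparameters and 0.226 with a minimum mean of 50. It passed with a pseudocount of 10 (0.0243) and with sample weights (0.00626). Tox2, the paralog of Tox that shares its HMG box, was at 0 in 5 libraries and at 55.0 in KO library 2, 40.9 in WT library 1 and 26.4 in WT library 3. These values are 0.36, 0.66 and 1.13 estimated fragments, so no difference in Tox2 was detectable at this depth.

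Tox4, a relative of Tox expressed in most tissues, averaged 2448 ± 345 with KO hosts and 1694 ± 422 with WT hosts (SD, n = 4 each; 0.56 in log2 units, SE 0.25) and did not pass (adjusted p = 0.730 by limma). Among the 15 tested family relatives of the 10 factors, which include Ikaros, Id, NFAT and E protein genes, 0 passed in either direction. At an unadjusted p under 0.05, 2 were higher (Tox4 and Ikzf3, or Aiolos, at 0.79, SE 0.34) and 1 was lower, and their median log2 fold change was 0.14.

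**Figure D2:**
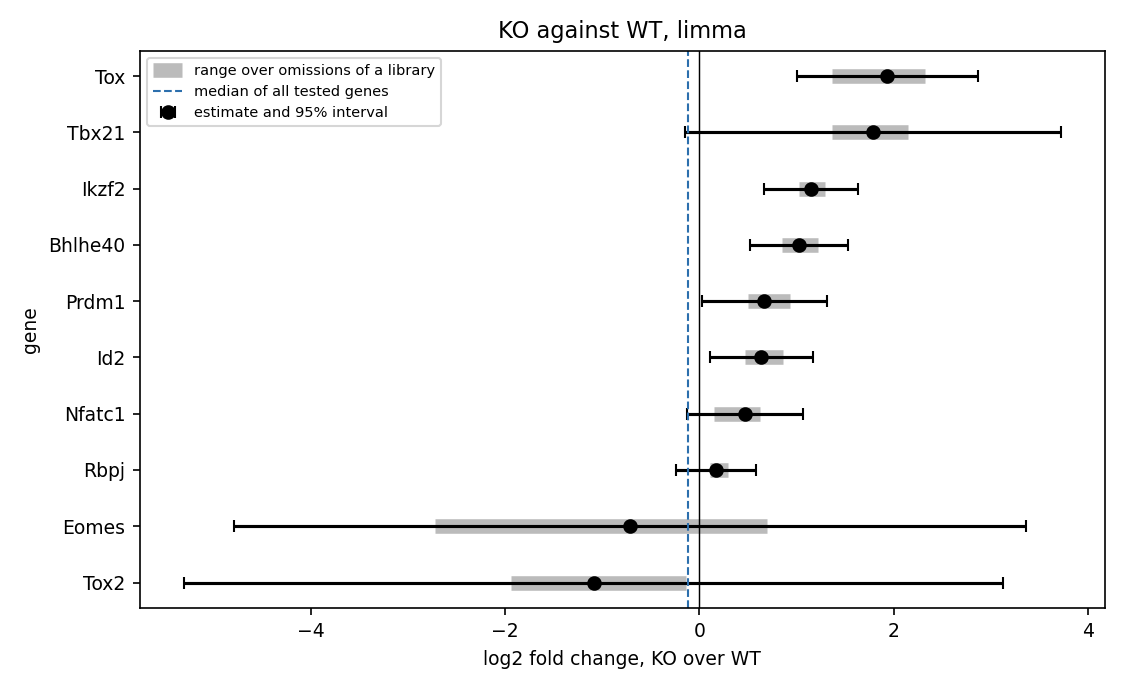
Log2 fold change of each factor, KO over WT, with the limma estimate (point), its 95% interval (line) and the range of the estimate when each library was left out (grey bar); the dashed line is the median of all tested genes, -0.12. The intervals of Tox, Ikzf2, Bhlhe40, Id2 and Prdm1 lie above 0, and those of Eomes and Tox2 span more than 8 log2 units.

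Tbx21 and Eomes, the T-box pair, had fitted changes of opposite sign, neither past the threshold. Tbx21 (ENSMUSG00000001444, chromosome 11, 96988897 to 97006157, minus strand) was at 106, 552, 173 and 264 in KO libraries 1 to 4. It was at 31.6, 98.4, 77.5 and 74.9 in the WT libraries, so that all 4 KO values lay above all WT values. Tbx21 averaged 274 ± 196 with KO hosts and 70.6 ± 28.0 with WT hosts (SD, n = 4 each). Its log2 fold change of 1.78 (SE 0.93, 95% interval -0.15 to 3.72) did not pass (adjusted p = 0.767 by limma). These values rest on 1.35 to 6.88 estimated fragments in KO and 0.51 to 3.31 in WT, so that counting error is large in each library.

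Eomes (ENSMUSG00000032446, chromosome 9, 118307280 to 118315200, plus strand) was at 64.1, 1.10, 142 and 119 in KO libraries 1 to 4. In WT it was at 195, 0, 227 and 380. The 3 WT libraries other than library 2 were above all KO libraries, and library 2 was near or at 0 in both groups. Its fitted change was -0.72 in log2 units (SE 1.95, 95% interval -4.79 to 3.36, adjusted p = 0.959 by limma), and Eomes did not pass. It turned to 0.69 without KO library 2 and to 0.14 without WT library 4, and without WT library 2 it was -2.72. With quantile normalization it was 0.14.

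The ratio of Tbx21 to Eomes was taken within each library on the log2(value + 1) scale. It was 0.71, 8.04, 0.29 and 1.14 in KO libraries 1 to 4 and -2.59, 6.64, -1.54 and -2.33 in WT libraries 1 to 4. In both libraries numbered 2 Eomes was far below the worth of a fragment, so that 8.04 and 6.64 are set by the pseudocount and are not measured ratios. Tbx21 was above Eomes in every KO library and in WT library 2, and below it in the other WT libraries. The means differed by 2.50 (exact two-sided permutation p = 0.429, adjusted p = 0.457 over the 4 ratios computed). Without WT library 2 the difference was 4.70, without KO library 2 it was 0.67, without WT library 1 it was 1.62, and without both libraries numbered 2 it was 2.87 (exact permutation p = 0.100).

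The window of 250 bases before the annotated start was available for 6 of the 10 factors, from RefSeq on GRCm38.p6: Tbx21, Eomes, Prdm1, Id2, Rbpj and Tox2. It is shown for Tbx21, whose groups did not overlap, and for Prdm1, which had an AP-1 match. Searched on both strands were GGAAA (the NFAT core), GGTGTGA (a T-box core), TGANTCA (AP-1), CACGTG (the E-box that BHLHE40 binds) and TGGGAA (RBPJ). Capitals mark matches, and the sequences read 5′ to 3′ towards the start of transcription, on the minus strand of chr11:97115332-97115581 for Tbx21 and of chr10:44458749-44458998 for Prdm1.
Tbx21: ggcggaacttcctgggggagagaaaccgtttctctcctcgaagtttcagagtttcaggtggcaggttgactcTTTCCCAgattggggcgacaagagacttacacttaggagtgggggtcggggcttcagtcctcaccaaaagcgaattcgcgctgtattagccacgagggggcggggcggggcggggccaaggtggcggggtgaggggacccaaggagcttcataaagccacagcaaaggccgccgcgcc
Prdm1: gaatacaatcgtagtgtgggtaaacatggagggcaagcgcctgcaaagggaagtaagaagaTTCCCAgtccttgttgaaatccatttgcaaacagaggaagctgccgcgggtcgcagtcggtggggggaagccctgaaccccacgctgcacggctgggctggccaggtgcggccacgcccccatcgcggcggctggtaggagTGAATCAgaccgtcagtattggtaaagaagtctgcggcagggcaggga

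In the Tbx21 window the NFAT and RBPJ letters overlap, both on the opposite strand, 178 and 177 bases before the start. In the Prdm1 window the RBPJ letters lie 189 bases before the start on the opposite strand and the AP-1 letters 48 bases before it. Of 32851 promoter windows of the same length, 55.6% held the NFAT letters, 21.6% the RBPJ letters, 6.75% the AP-1 letters, 6.02% the E-box and 3.33% the T-box core. None of the 5 motifs was in the Eomes or Id2 window, and the sequence after the Eomes start was not found in its GENCODE M21 transcripts. Each Rbpj window held NFAT and RBPJ letters, and some Tox2 windows held NFAT letters. These matches describe letters in a window and are not shown to be bound sites.

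Prdm1 encodes Blimp-1, a repressor of effector and terminally differentiated lymphocytes (ENSMUSG00000038151, chromosome 10, 44313173 to 44404497, minus strand). It was at 2701, 3448, 1430 and 2738 in KO libraries 1 to 4 and at 1140, 2449, 1087 and 1879 in WT. KO library 3 lay among the WT libraries, and WT library 2 among the KO libraries. The difference of 0.67 in log2 units (SE 0.31, 95% interval 0.03 to 1.31) did not pass (adjusted p = 0.732 by limma).

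Bcl6, a repressor that opposes Blimp-1 and is kept in memory and stem-like cells, differed by 0.19 in log2 units (SE 0.35, adjusted p = 0.931 by limma). The log2 ratio of Prdm1 to Bcl6 was 1.10 to 2.84 in KO and 0.44 to 1.98 in WT, and the groups overlapped. The mean ratios differed by 0.48 (exact permutation p = 0.457, adjusted p = 0.457), by 0.0945 without KO library 2, by 0.23 without WT library 1 and by 0.74 without WT library 2.

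Bhlhe40 encodes a basic helix-loop-helix repressor that activated T cells need for cytokine production and that macrophages also make. The gene lies on chromosome 6, 108637590 to 108643886 (ENSMUSG00000030103, plus strand). Its values were 15131, 22700, 10383 and 17292 in KO libraries 1 to 4. In WT they were 6880, 10446, 5882 and 8539. Again the groups touched at one point, with WT library 2 just above KO library 3.

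Bhlhe40 was thus 2.03-fold higher in KO on the log2(value + 1) scale, at 16376 ± 5109 against 7937 ± 2000 (SD, n = 4 each; 1.02 in log2 units, SE 0.24, 95% interval 0.52 to 1.53), and did not pass (adjusted p = 0.106 by limma). It passed without KO library 3 (1.22, adjusted p = 0.0133 by limma) and did not pass in the other 7 omissions, where it was as low as 0.85, without KO library 2, and the adjusted p as high as 0.509, without WT library 1. Bhlhe41, its paralog, averaged 1680 ± 542 with KO hosts and 2418 ± 660 with WT hosts (SD, n = 4 each; -0.54 in log2 units, SE 0.28) and did not pass either (adjusted p = 0.767 by limma). It was named after its values were seen, and the difference between the paralogs was not tested.

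Id2 encodes an inhibitor of E protein factors that supports effector CD8 T cells (ENSMUSG00000020644, chromosome 12, 25143798 to 25147139, minus strand). It was at 10050, 8059, 4441 and 6767 in KO libraries 1 to 4. The WT values were 4622, 3401, 3958 and 6672. The 3 KO libraries other than library 3 were above every WT library. Its log2 fold change of 0.64 (SE 0.26, 95% interval 0.11 to 1.17) did not pass (adjusted p = 0.679 by limma).

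Id3, the related inhibitor kept in naive and memory cells, averaged 492 ± 232 with KO hosts and 709 ± 105 with WT hosts (SD, n = 4 each; -0.61 in log2 units, SE 0.39, adjusted p = 0.770 by limma). Its KO values were 382, 374, 840 and 373, so that KO library 3 was near the highest WT value. The log2 ratio of Id2 to Id3 was 4.71, 4.42, 2.40 and 4.18 in KO and 2.93, 2.01, 2.42 and 3.35 in WT. The means differed by 1.25 (exact permutation p = 0.114, adjusted p = 0.229). Without KO library 3 the difference was 1.76 (exact permutation p = 0.0286), and this was the 1 of 8 omissions with a p under 0.05. It was 0.99 without KO library 1 and 1.08 without KO library 2 (exact permutation p = 0.200 for both).

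Nfatc1 encodes NFAT2, the calcineurin-regulated factor whose transcripts rise with antigen receptor signals (ENSMUSG00000033016, chromosome 18, 80649420 to 80756286, minus strand). It was at 2989, 2050, 2417 and 2899 in KO libraries 1 to 4 and at 2549, 955, 2196 and 2205 in WT, so that the groups overlapped and WT library 2 lay far below the rest. The fitted change was 0.47 in log2 units (SE 0.29, 95% interval -0.13 to 1.06, adjusted p = 0.770 by limma), and 0.15 without WT library 2. Of 20 calcineurin and NFAT pathway genes tested, 0 passed, with a median of 0.26. At an unadjusted p under 0.05, 1 was higher, the calcium channel Orai1 (2.46, SE 0.99, and 1.21 without WT library 2). The 1 lower gene was the calcineurin regulator Rcan2 (-4.51, SE 2.09), which lay at 0 in all KO libraries but library 3. Ppp3r1, the calcineurin regulatory subunit and the most abundant of these genes, was at -0.02 (SE 0.19).

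Rbpj encodes the DNA-binding factor through which Notch receptors act (ENSMUSG00000039191, chromosome 5, 53623494 to 53814704, plus strand). It was at 16365, 16880, 11553 and 15800 in KO libraries 1 to 4 and at 15278, 13730, 11849 and 12712 in WT. It varied least within groups of all 10, with coefficients of variation of 16.1% in KO and 11.0% in WT, and the groups overlapped. The fitted change was 0.17 in log2 units (SE 0.20, adjusted p = 0.859 by limma), and its 95% interval of -0.24 to 0.58 holds no fold change above 1.49.

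Of the other Notch pathway genes 23 were tested, and 0 passed in either direction, with 0 at an unadjusted p under 0.05 and a median of -0.01. The smallest p values belonged to Ncstn, a gamma-secretase subunit (-0.44, SE 0.22), and Rfng, a glycosyltransferase of Notch (-3.01, SE 1.99, at low levels). Adam10, the protease that cuts Notch and the most abundant of these genes, was at 0.04 (SE 0.20).

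Levels can be compared between genes only per length. Normalized values were divided by the merged exon length of each gene in GENCODE M21, of 2.44 kilobases for Id2 to 9.55 for Ikzf2. Mean level per kilobase over the 4 KO libraries was highest for Bhlhe40 (5169), followed by Id2 (3006) and Rbpj (2181). Tox (675), Ikzf2 (492), Prdm1 (480) and Nfatc1 (348) came next, and Tbx21 (110), Eomes (22.1) and Tox2 (4.34) last. In WT the order was Bhlhe40 (2505), Rbpj (1928), Id2 (1913), Prdm1 (305), Nfatc1 (266), Ikzf2 (223), Tox (208), Eomes (54.3), Tbx21 (28.4) and Tox2 (5.31). Neighbours in this order were read as unresolved where their gap was under the larger of their SDs per kilobase. In KO these were Id2 and Rbpj, Tox and Ikzf2, Ikzf2 and Prdm1, and Prdm1 and Nfatc1. In WT they were Bhlhe40 and Rbpj, Rbpj and Id2, each step from Prdm1 through Nfatc1 and Ikzf2 to Tox, and Eomes and Tbx21.

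Tox stood against the stem-like factor Tcf7 in the last ratio. Tcf7 itself was at 2671, 9183, 13997 and 7741 in KO libraries 1 to 4 and at 7432, 2905, 9098 and 12413 in WT, which is 0.03 in log2 units (SE 0.41, adjusted p = 0.992 by limma). The log2 ratio of Tox to Tcf7 was -0.12, -2.67, -2.03 and -1.20 in KO and -3.47, -3.84, -3.24 and -3.08 in WT. All 4 KO libraries were above all WT libraries, with means of -1.51 ± 1.10 and -3.41 ± 0.33 (SD, n = 4 each). The difference of 1.90 gave an exact two-sided permutation p of 0.0286, the smallest the design allows, and an adjusted p of 0.114 over the 4 ratios, which does not pass. Given the p-values of the other ratios, no larger difference could have lowered this adjusted p. The ratios were chosen with earlier results of these data known, so these p-values are descriptive.

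**Figure D3:**
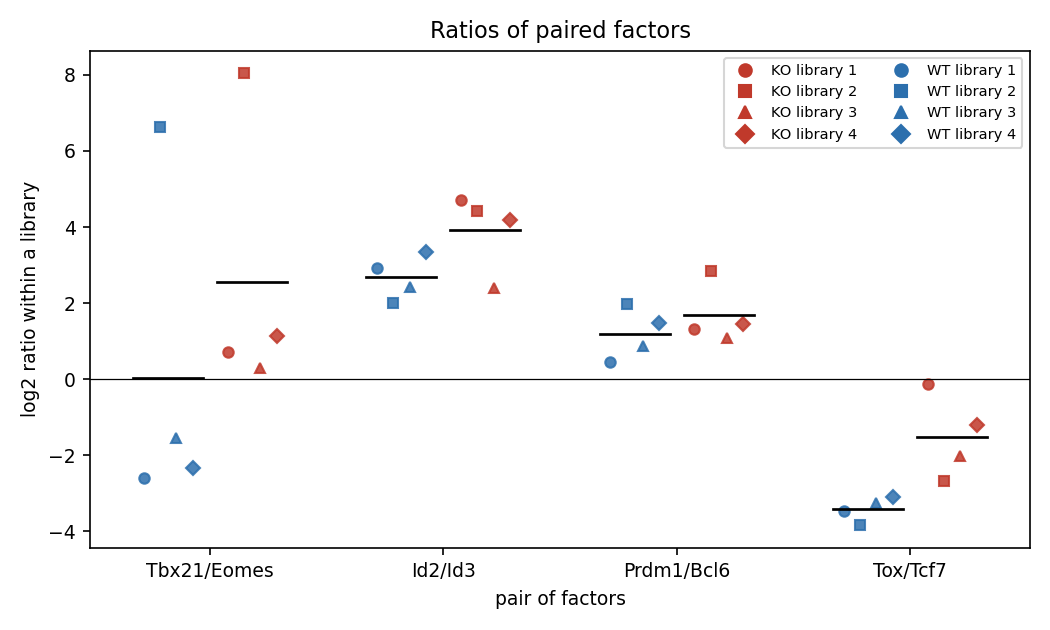
Log2 ratio of paired factors within each library, for Tbx21 to Eomes, Id2 to Id3, Prdm1 to Bcl6 and Tox to Tcf7; WT libraries are blue, KO libraries red, the shape gives the library number and black bars are means. The groups separate for Tox to Tcf7, and both libraries numbered 2 stand apart for Tbx21 to Eomes (8.04 in KO, 6.64 in WT), where Eomes was near or at 0 and the pseudocount sets the ratio.

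Tcf7 belongs to a list of 14 factors of naive, memory and stem-like T cells, all tested, of which 0 passed and 2 were higher and 0 lower at an unadjusted p under 0.05: Myb, which sustains stem-like exhausted cells (log2 fold change 1.31, SE 0.52), and Ets1, a factor of resting lymphocytes (0.75, SE 0.30). Their median was 0.13. Among 25 tested partner factors of effector and exhausted cells, 2 passed, both higher in KO: the AP-1 subunit Fosl2 (1.32, SE 0.24, adjusted p = 0.0179 by limma) and the antigen receptor-induced nuclear receptor Nr4a3 (1.57, SE 0.31, adjusted p = 0.0322 by limma). Both calls held in 3 of the 8 omissions of a library and ended without KO library 1, 2 or 4 or WT library 1 or 3, with adjusted p up to 0.202 for Fosl2 and 0.258 for Nr4a3. Both also ended with a minimum mean of 50 (0.0608 and 0.109), that of Fosl2 without both libraries numbered 2 (0.138) and that of Nr4a3 with robust hyperparameters (0.241). The median of the 25 was 0.23, with 7 higher and 1 lower at an unadjusted p under 0.05, where 3.21% and 3.49% of all tested genes were. The KO and WT libraries did not overlap for 5 of the 25 that were higher in KO and 1 that was lower. Over all tested genes 2.02% and 2.09% separated in these directions.

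Genes that exhausted and effector cells are known for were counted in the same way. Of 15 inhibitory receptors and surface proteins of exhausted cells, 2 passed and were higher in KO, Ctla4 (log2 fold change 2.51, SE 0.42) and Tnfrsf9 (2.26, SE 0.43). The groups did not overlap for 8, all higher in KO, and the median was 1.21. Over all tested genes 0.211% were called higher and 2.02% separated in that direction. The most abundant, the ectoenzyme Cd38, was at 0.24 (SE 0.24). Of 16 tested effector products and receptors, 3 passed, all higher: perforin (Prf1, 3.11, SE 0.47), Nkg7 (1.54, SE 0.25) and Il2rb (1.83, SE 0.29), with a median of 1.32. The groups did not overlap for 5 of the effector genes, all higher in KO. None of either list was called lower, also at an unadjusted p under 0.05. Negative fold changes were seen for 2 genes of the exhausted cell list and 4 of the effector list. The call of Tnfrsf9 held in 3 of the 8 omissions and ended without KO library 1 or 4 or WT library 1, 2 or 3 (adjusted p up to 0.191), with a minimum mean of 50 (0.0775) and without both libraries numbered 2 (0.0670). Those of Ctla4 (up to 0.0578), Nkg7 and Il2rb (both up to 0.0575) ended without KO library 4 or WT library 1, and that of Prf1 without KO library 4 (0.0575).

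Of 9 summed cell type marker lists, none passed an adjusted p of 0.05 (lowest 0.0857, exact permutation test). The CD4, NK cell and dendritic cell lists had the smallest p that the design allows. Given the other lists, no larger difference could have lowered their adjusted p, so their not passing says nothing about its size. Some of the sums separated the groups and others overlapped, and their part in the results above was not tested. The summed CD8 T cell markers ranged over 23457 to 49866 with KO hosts and 8561 to 30354 with WT hosts (11 of 12 genes positive, difference in mean log2 0.88, exact permutation p = 0.0857), and without WT library 2 the difference was 0.48. Dendritic cell markers ranged over 62811 to 157422 with KO hosts and 23142 to 57619 with WT hosts (10 of 11 tested positive, 1.67, exact permutation p = 0.0286, adjusted p = 0.0857 over 9 lists), with H2-Aa, H2-Eb1 and Cd74 past the limma threshold and Cd209a at 0 in 4 or more libraries. H2-Aa made up much of this sum, averaging 63536 with KO hosts and 17512 with WT hosts. Xcr1, also in the dendritic cell list, overlapped between the groups (77.4 to 753 in KO, 167 to 316 in WT). The H2-Eb1 call ended when KO library 4 was omitted (adjusted p = 0.0577 by limma). H2-Aa did not pass with KO library 4 (0.0577) or WT library 1 (0.0602) omitted, with a minimum mean of 50 (0.0525) or with robust hyperparameters (0.157, adjusted by limma). NK cell markers without Eomes ranged over 989 to 1720 with KO hosts and 73.7 to 907 with WT hosts (5 of 6 tested positive, 1.59, exact permutation p = 0.0286, adjusted p = 0.0857), and the difference was 0.74 without WT library 1. The defining NK receptor Ncr1 was at 0 in 5 of the 8 libraries. Of the 7 NK markers, 0 were above the worth of a fragment in every library, so these zeros say little.

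Macrophage and monocyte markers ranged over 120044 to 257527 with KO hosts and 197875 to 304804 with WT hosts (2 of 15 positive, -0.46, exact permutation p = 0.200, and -0.26 without KO library 3). Fibroblast markers ranged over 42561 to 69794 with KO hosts and 54807 to 87010 with WT hosts (1 of 10 positive, -0.39, exact permutation p = 0.114). B and plasma cell markers (1310 to 2779 in KO, 702 to 1526 in WT), endothelial markers (888 to 2142 in KO, 1070 to 2397 in WT) and tumour and epithelial markers (1225 to 2020 in KO, 947 to 2378 in WT) overlapped between the groups.

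**Figure D4:**
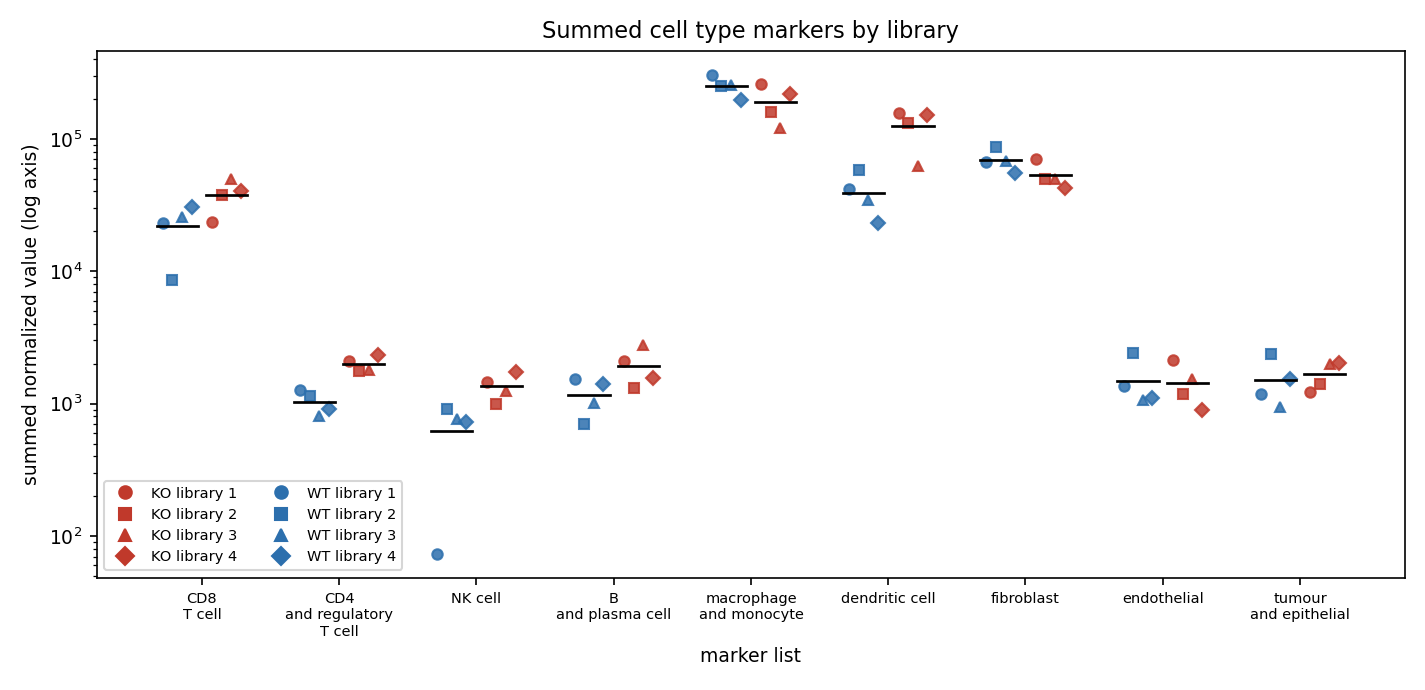
Summed normalized value (log axis) of the markers of 9 cell types in each library; WT libraries are blue, KO libraries red, the shape gives the library number and black bars are means. The dendritic cell, NK cell and CD4 lists separate the groups, and WT library 2 is the lowest of all libraries for CD8 T cell markers (8561).

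Within a group the order of the libraries differed between factors. Leaving out Tox2, which was mostly at 0, KO library 3 was the lowest KO library for 5 factors (Prdm1, Ikzf2, Id2, Rbpj and Bhlhe40) and the highest for Tox and Eomes. This library also had the lowest macrophage (120044) and dendritic cell (62811) sums of the KO group and its highest CD8 T cell sum (49866). WT library 2 was the lowest WT library for Tox, Eomes, Nfatc1 and Id2 and the highest for Tbx21, Prdm1 and Bhlhe40, and it had the lowest CD8 T cell sum. KO library 2 had the fewest estimated fragments and was likewise the lowest KO library for Tox, Eomes and Nfatc1 and the highest for Tbx21, Prdm1, Rbpj and Bhlhe40. Whether these differences come from the cells sorted or from the libraries was not tested.

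Expressed per unit of T cell marker RNA, by centring each library on its mean log2 level of the 12 CD8 T cell markers, no factor and no other gene passed by limma, and 34 genes were higher and 619 lower at an unadjusted p under 0.05. This subtracts the same offset from all genes of a library, so the spread of the offset enters every fit. The SE of Ikzf2 rose from 0.23 to 1.04 and that of Mtdh from 0.25 to 1.06. The absence of calls therefore cannot show whether differences remain on this scale. The centring lowered the median log2 fold change of all tested genes by 0.74. On that scale Tox was at 1.19 (SE 1.05), Tbx21 at 1.04 (SE 1.54), Ikzf2 at 0.41 (SE 1.04, adjusted p = 0.900 by limma) and Bhlhe40 at 0.28 (SE 1.13), whereas Prdm1 (-0.07), Id2 (-0.10), Nfatc1 (-0.28), Rbpj (-0.57), Eomes (-1.46) and Tox2 (-1.83) were negative. Relative to the median of all tested genes, which this centring does not alter, Tox was at 2.05, Tbx21 at 1.90, Ikzf2 at 1.27, Bhlhe40 at 1.14, Prdm1 at 0.79, Id2 at 0.76, Nfatc1 at 0.58, Rbpj at 0.29, Eomes at -0.60 and Tox2 at -0.97.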

How the data were processed

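The deposited table holds a signal per gene and library, gene-level counts that the authors divided by a DESeq2 size factor, as its name says. Per the submitters' processing notes, DESeq2, STAR 2.7.8a and Partek were used on build mm39, in roles not stated. Strand of the counting is not given in the sources used here. Small RNAs held 28.5% to 36.3% of each library's sum. Between 81.7% and 88.1% of a library's lower values (no more than 500 steps) were whole multiples of its smallest step, within 0.02 of a step, which is too few to rebuild counts, and a count model was not used.

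Values were used as log2(value + 1). A mean of 10 or more was required, and limma 3.58.1 (R 4.3.3) was fitted (intensity trend, KO against WT, no covariates), two-sided, with Benjamini-Hochberg adjustment over all 16120 genes. Single values were tested by exact permutation over samples. Fold changes are on this scale, where that of a gene near 0 depends on the pseudocount and can be smaller or larger than the ratio of means. Fragment numbers were set so that Poisson sampling would miss the observed share of genes under 3 reads, judged on genes that averaged 20 to 500 elsewhere. Gene ends are 1 less than the listed stop.

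Genes named are the 10 factors, Mtdh, genes of the lists past the threshold, the 2 with the smallest p and the most abundant of each list, and partners in ratios. For cell type marker lists this was narrowed, after the values were seen, to genes past the threshold or named for their level, since these lists are given as sums. Eomes, Id3, Nfatc2, Nfatc3 and Ikzf4 stand in more than 1 list. The factors, lists, ratios and alternatives were chosen with earlier results of these data known, except that leaving out both libraries numbered 2 was added after seeing these values. Alternatives covered pseudocount, minimum mean, scaling, replicate block, sample weights, robust hyperparameters and each library left out. Promoter windows and exon lengths are of GRCm38 and no coordinates were converted.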

Additional observations from a re-analysis of the deposited data

Results flagged for a closer look

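In 82 groups of 4 values, chance sets about 1 in 20 apart by the measure used, the gap of 1 library to its nearest neighbour as a share of the group's range, against Dixon's 95% critical value, and 8 stood apart. For the log2 ratio of Tbx21 to Eomes, KO library 2 was at 8.04 against 0.29 to 1.14 in the other KO libraries, and WT library 2 at 6.64 against -2.59 to -1.54, both set by the pseudocount since Eomes was near or at 0. Tox2 was at 55.0 in KO library 2 and at 0 in the other KO libraries. Id3 was at 840 in KO library 3 against 373 to 382. Tox4 was at 1933 in KO library 1 against 2597 to 2659. Il2ra was at 1282 in KO library 1 against 762 to 816. Rcan2 (83.1) and Rfng (164) were highest in KO library 3, against 0 and 0 to 27.6 in the other KO libraries.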

How the results depend on the processing

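Depth limits Tox2, Eomes and Tbx21, which rest on few fragments. The main counts were 34 genes higher, 4 lower and 1 of the 10 factors. They were 59 higher and 3 factors with a pseudocount of 10, 15, 0 and 0 with a minimum mean of 50, 7 lower and 2 factors with quantile normalization, 94, 18 and 3 with sample weights, 2 factors with robust hyperparameters, and 0, 0 and 0 when centred on CD8 T cell markers. Without both libraries numbered 2 they were 21 and 0. The factors were Ikzf2, Tox and Bhlhe40 with a pseudocount of 10 and with sample weights, Ikzf2 and Bhlhe40 with quantile normalization and robust hyperparameters, and Tox without both libraries numbered 2. Mtdh, at -1.23, had an adjusted p of 0.0945 with a minimum mean of 50 and kept its value, while it was at -1.97 when centred on CD8 T cell markers and at -1.15 without both libraries numbered 2, in neither case past the threshold.

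Same-numbered KO and WT libraries deviated together little (correlations 0.02 to 0.08), and 1 of 8 libraries correlated best with its own number. With so few libraries this cannot decide whether the numbers pair the samples or mark a shared batch, and the labels do not say. With the replicate block 0 genes were higher, 0 lower and 0 of the factors passed by limma (530 genes higher and 571 lower at an unadjusted p under 0.05), Mtdh was at -1.23 (adjusted p = 0.0627), and the ratio of Tox to Tcf7 kept its difference of 1.90 with an exact p of 0.125, the smallest that 4 pairs allow. That difference was 2.15 without both libraries numbered 2 (exact p = 0.100).

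With each library left out in turn, 7 to 61 genes were higher and 0 to 9 lower, and 0 to 2 factors passed. Genes higher in KO numbered 19 and 7 with KO library 1 or 4 left out, and 11, 20 and 61 with WT library 1, 3 or 4 left out, in that order. Mtdh was at -1.38 to -1.04, the Tox to Tcf7 difference at 1.44 to 2.29 and that of Id2 to Id3 at 0.99 to 1.76. Marker sums differed by 0.48 to 1.10 for CD8 T cells, -0.63 to -0.26 for macrophages, 0.74 to 1.94 for NK cells, 1.44 to 1.97 for dendritic cells, -0.26 to 0.22 for endothelial cells and -0.0028 to 0.44 for tumour and epithelial cells. Eomes ranged from -2.72 to 0.69, Tcf7 from -0.39 to 0.51, Adam10 from -0.0491 to 0.20 and Ppp3r1 from -0.0939 to 0.12.

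Signs turned when centred on CD8 T cell markers for Prdm1 (-0.0725), Nfatc1 (-0.28), Id2 (-0.10), Rbpj (-0.57), Bcl6 (-0.55), Tcf7 (-0.71), Tox4 (-0.18), Nfat5 (-0.59), Adam10 (-0.70) and Cd38 (-0.50), by the construction of that scale. They also turned with quantile normalization for Eomes (0.14) and Adam10 (-0.0014), with sample weights for Tcf7 (-0.13) and Ppp3r1 (0.0325), and without both libraries numbered 2 for Tcf7 (-0.51) and Adam10 (-0.11). For these the cause was not tested. A pseudocount of 0.5, TMM scaling and no minimum mean changed the side of the threshold for none of the gene fold changes they were run on, which leave out Bhlhe41. Ratios were recomputed only with other pseudocounts, the block and omissions, and marker sums only with omissions.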
